A study of Mus musculus with 12 samples.

Results

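The 44 genes described here encode the machinery that copies DNA and the proteins that carry a cell from G1 into S phase. They were taken by symbol from a list that was drawn up with earlier results of these data known, by a rule that uses no measured value, and they are 44 of the 13603 genes with enough fragments for a test, out of 25511 in the deposited gene table. All 44 passed the filter on low counts. They fall into 7 role groups: 10 genes of origin licensing, 6 of origin firing, 6 of the polymerases and primase, 8 of the sliding clamp, its loader and lagging-strand processing, 5 of nucleotide supply, 5 of G1/S control and 4 of chromatin assembly on new DNA.

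RNA was sequenced from primary osteoblast-like cells, freed by collagenase from the skull vaults (calvariae) of newborn C57Bl/6J mice. The mice were wild type (WT) or labelled F2rl1 -/- (KO); F2rl1 encodes protease-activated receptor 2 (PAR2), a membrane receptor that proteases switch on by cutting it, and the series asks what this receptor contributes to the response of bone-forming cells to factors shed by prostate cancer cells. After 48 h of preculture in medium with 10% serum, all cells spent 4 days in BRFF-HPC1 medium with 20% serum, either fresh (unconditioned) or first kept for 48 h on cultures of the human prostate cancer line MDA-PCa-2b (conditioned). The 4 groups of 3 samples are WT unconditioned, WT conditioned, KO unconditioned and KO conditioned. An unconditioned sample titled as WT carries the genotype label F2rl1 -/- and was placed in WT by its title. Which library it is cannot be told. The labels do not say which part of F2rl1 is deleted, nor whether the samples of a group came from separate animals, and the p-values below cover no more than the scatter among these samples, which may be technical. The cells are a mixed digest rather than a purified line.

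Replication starts at origins. The origin recognition complex, with Cdc6 and Cdt1, loads the ring of Mcm2 to Mcm7 onto DNA in G1 (licensing), and in S phase the kinases Cdc7-Dbf4 and cyclin E-Cdk2 turn this ring into a running helicase with Cdc45 and the GINS proteins (firing). Primase and the DNA polymerases alpha, delta and epsilon then copy the strands around the clamp Pcna, while ribonucleotide reductase and thymidylate enzymes supply deoxynucleotides. Most of these genes are classical targets of the E2F transcription factors, which the retinoblastoma proteins hold in check until cyclin-dependent kinases release them, so their RNA is high in cycling cells and low in resting or terminally differentiated ones.

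E2F factors bind short GC-rich words near start sites, and the stretches below are shown because they hold 2 or more of these words. RefSeq promoter windows (GRCm38.p6, 250 bases before to 50 after each start site) were found for 37 of the 44 genes, in 44 windows. Mcm4, Gins1, Gins2, Prim2, Pole, Rfc2 and Ccne2 were not matched. Each window was searched on both strands for 4 words, TTTCCCGC, TTTGCCGC, TTTGGCGC and TTTCGCGC. At least 1 word stood in the windows of 13 of the 37 genes (35.1%), against 4.59% of 10268 tested genes and 2.6% of all 27025 genes with a window of that length. The 13 are Cdc6, Cdt1, E2f2, Lig1, Mcm3, Mcm5, Mcm6, Mcm7, Orc1, Pola1, Pold1, Rfc3 and Uhrf1. Printed 5′ to 3′ on the gene's strand, from 250 bases before to 30 after the start site and with the E2F words in capitals on whichever strand they were read, are Mcm3 (chr1:20820283-20820562, minus strand), Mcm5 (chr8:75109259-75109538, plus strand), Mcm6 (chr1:128359676-128359955, minus strand), Mcm7 (chr5:138171854-138172133, minus strand) and Rfc3 (chr5:151651179-151651458, minus strand).
Mcm3: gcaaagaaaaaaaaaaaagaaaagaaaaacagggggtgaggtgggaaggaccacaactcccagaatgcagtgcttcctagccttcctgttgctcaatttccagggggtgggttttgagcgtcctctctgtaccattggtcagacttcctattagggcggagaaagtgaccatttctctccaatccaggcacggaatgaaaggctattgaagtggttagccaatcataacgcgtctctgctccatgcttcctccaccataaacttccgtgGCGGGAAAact
Mcm5: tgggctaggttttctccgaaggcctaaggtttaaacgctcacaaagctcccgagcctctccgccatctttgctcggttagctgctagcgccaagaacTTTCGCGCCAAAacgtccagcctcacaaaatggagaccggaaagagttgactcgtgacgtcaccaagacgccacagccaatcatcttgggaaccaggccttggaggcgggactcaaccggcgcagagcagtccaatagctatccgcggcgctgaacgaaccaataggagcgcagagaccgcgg
Mcm6: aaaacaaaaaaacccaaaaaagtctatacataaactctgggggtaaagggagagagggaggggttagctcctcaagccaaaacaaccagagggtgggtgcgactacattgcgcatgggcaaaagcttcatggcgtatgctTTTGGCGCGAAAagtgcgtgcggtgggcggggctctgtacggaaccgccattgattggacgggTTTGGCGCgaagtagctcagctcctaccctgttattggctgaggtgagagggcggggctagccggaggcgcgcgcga
Mcm7: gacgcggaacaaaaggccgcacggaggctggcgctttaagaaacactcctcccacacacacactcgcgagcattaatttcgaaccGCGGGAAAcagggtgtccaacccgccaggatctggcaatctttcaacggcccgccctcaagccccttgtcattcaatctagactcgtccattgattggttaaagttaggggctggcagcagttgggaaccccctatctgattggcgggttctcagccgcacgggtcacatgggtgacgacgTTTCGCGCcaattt
Rfc3: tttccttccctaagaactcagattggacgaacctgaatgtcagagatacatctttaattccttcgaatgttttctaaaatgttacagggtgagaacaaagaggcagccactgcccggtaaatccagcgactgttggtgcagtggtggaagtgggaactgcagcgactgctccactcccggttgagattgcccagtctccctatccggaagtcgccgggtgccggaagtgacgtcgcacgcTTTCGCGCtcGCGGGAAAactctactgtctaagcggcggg
In Mcm5 and Mcm6 the first capital run holds a word on each strand that overlap each other, and Mcm6 has a further word nearer the start site. Mcm3 has its second word just after the printed stretch, starting at base 39 after the start site. For Mcm5 and Mcm6 the start site that GENCODE annotates lies further into the gene than the RefSeq one. For Rfc3 it lies before the RefSeq one, at chr5:151651242, inside the printed stretch. For Mcm7 it is at chr5:138172422, so the whole printed stretch lies inside the gene as GENCODE annotates it.

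The word TTTGAA, the core of the cell cycle homology region through which many mitotic genes are repressed in resting cells, was in the windows of 7 of the 37 genes (18.9%), near the 14.0% of tested genes, while 18 of 25 mitosis genes with a window (72.0%) held it. The CCAAT box was in 21 of 37 (56.8%), against 42.9% of tested genes and 80.0% of the mitosis genes. An E2F word stood in 1 of the 25 mitosis genes (4.0%). These are matches of letters within the windows and no measure of binding.

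Libraries held 15023994 to 16956754 fragments. Libraries 0 and 1 of the unconditioned WT group were equal for 91.8% of 17538 genes and differed by less than the sampling noise, so they were counted as 1 sample, here library 0, and 11 distinct libraries remain. F2rl1 itself had 14 to 25 fragments per WT library and 12 to 46 per library labelled KO, so its RNA was not lower under the KO label, and these libraries are called KO-labelled. Of 11 osteoblast markers, 9 passed the filter, with a summed level of 36600 to 58000 CPM (fragments scaled to a common library size) in unconditioned and 24500 to 41500 CPM in conditioned libraries. Bglap and Dmp1 did not pass. Dmp1, a marker of osteocytes, had under 10 fragments in every library. The osteoclast markers that passed, 5 of 9, summed to 152 to 204 CPM in unconditioned and 286 to 450 CPM in conditioned libraries. Calcr, Dcstamp, Ocstamp and Oscar had under 10 fragments in every library, with Dcstamp at 0 throughout. In WT conditioned medium, Atp6v0d2 (log2 change 2.71, edgeR adjusted p = 0.00689) and Ctsk (1.46, edgeR adjusted p = 0.0373) were called higher. The other 3 that passed were not called. Endothelial markers (5 of 9) summed to 4.37 to 9.02 and 9.21 to 16.3 CPM, and macrophage markers (11 of 13) to 53.6 to 88.5 and 51.6 to 144 CPM. Skeletal muscle markers (15 of 16) summed to 51.0 to 330 CPM in unconditioned and 31.0 to 256 CPM in conditioned libraries, keratinocyte markers (6 of 9) to 6.56 to 34.4 and 4.99 to 16.7 CPM, and adipocyte markers (5 of 8) to 20.3 to 93.6 and 39.4 to 115 CPM. Averaged over the genotypes, edgeR called 2 of 5 osteoclast, 3 of 5 endothelial and 2 of 11 macrophage markers higher in conditioned medium (adjusted p under 0.05). Of all genes 10.4% were. Called lower were 1 of 9 osteoblast markers (Alpl, log2 change -1.43, edgeR adjusted p = 0.0177), 1 of 6 keratinocyte and 1 of 5 adipocyte markers. Of all genes 10.1% were. Of the 15 muscle markers 0 were called. The part of these cell types in the differences below was not tested.

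Replication and G1/S RNAs were lower in conditioned than in unconditioned medium. Summed over the 44 genes, their level was 1030 and 1440 CPM in the unconditioned WT libraries and 592 to 890 CPM in the conditioned ones, and 1240 to 1590 CPM against 750 to 985 CPM in KO-labelled libraries; neither pair of ranges overlaps. Averaged over the genotypes with equal weight, 27 of the 44 genes fell (edgeR's quasi-likelihood test, Benjamini-Hochberg adjusted p under 0.05, the rule for every call below), where 10.1% of all genes tested did, and none rose. The median log2 change of the 44 was -0.80, against 0.02 over all genes, with a range from -2.15 for Tk1 to 0.04 for E2f1. In bulk RNA, fewer cells in S phase and less of these RNAs per cell cannot be told apart. Without unconditioned WT library 2 the count was 12 of 44, where 4.73% of all genes were called lower.

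**Figure D1:**
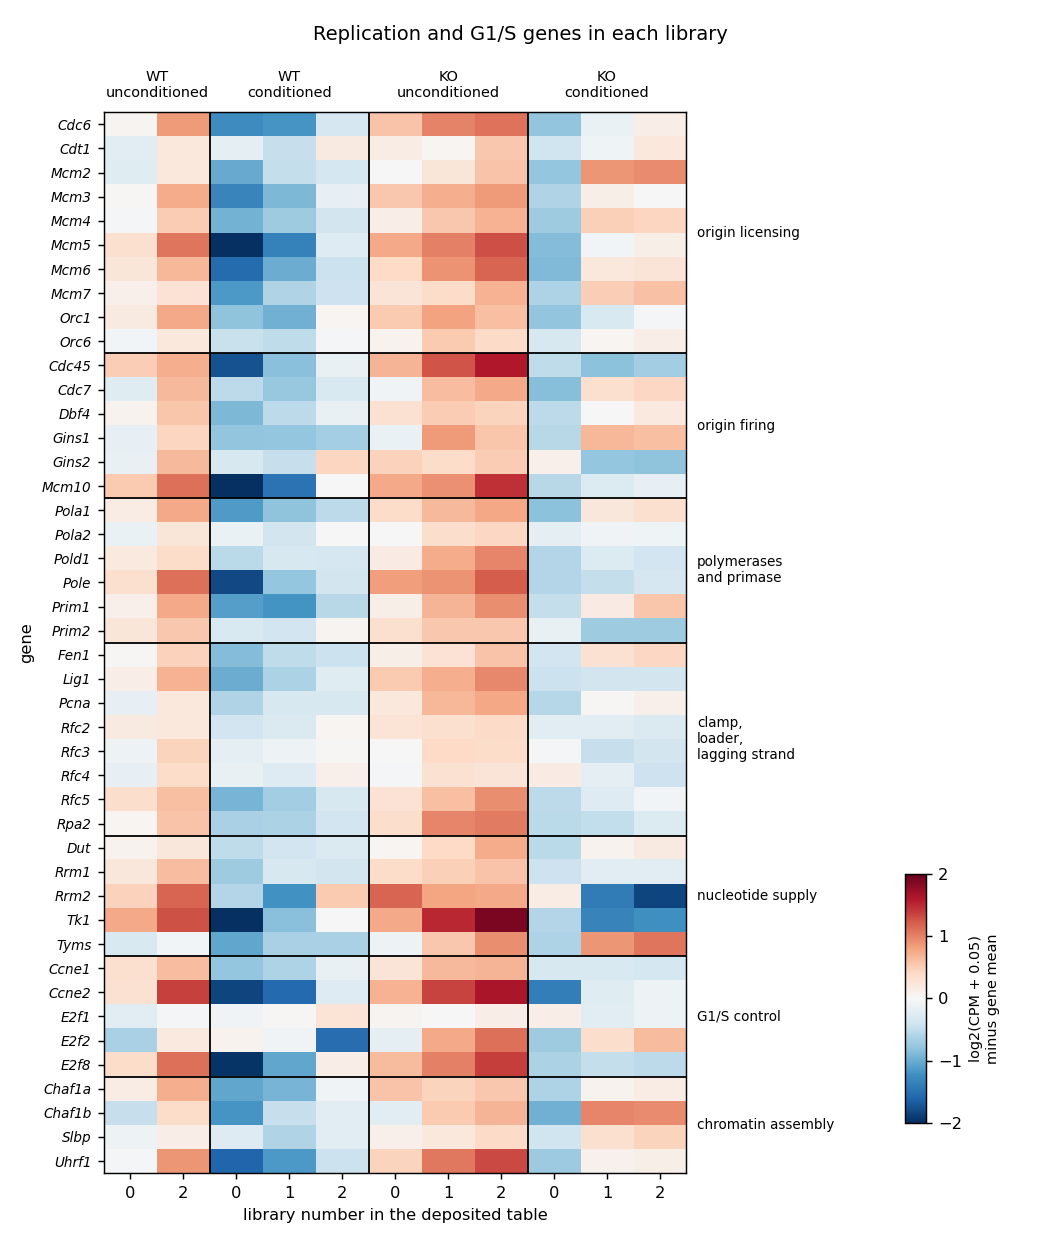
Each row is a gene, ordered by role, and each column 1 of the 11 distinct libraries; colour gives log2(CPM + 0.05) minus the gene's mean over the libraries, from -2 (blue) to 2 (red). The unconditioned libraries are mostly red and the conditioned ones mostly blue. Mcm2, Tyms and Chaf1b are red in conditioned KO libraries 1 and 2, as are others such as Mcm4 and Mcm7.

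Within WT, 2 genes were called, Ccne1 and Rrm1, where 0.551% of all genes were called lower. The change was negative for 43 of the 44, with a median of -0.89 (0.01 over all genes), 28 had an unadjusted p under 0.05 (15.2% of all genes), and 34 had every conditioned library below both unconditioned ones (20.6% of all genes). Leaving out any 1 of the 11 libraries moved the count of 2. It was 0 without either unconditioned WT library, conditioned WT library 0 or 1, unconditioned KO library 1 or conditioned KO library 1, where 0% to 0.155% of all genes were called lower. It was 1 without unconditioned or conditioned KO library 2 (0.177% and 0.459% of all genes) and 5 without unconditioned KO library 0 (1.02%). Without conditioned WT library 2 it was 15 (1.63%), and without conditioned KO library 0 it was 16 (3.19%). DESeq2 called 21 of the 44 lower, where it called 3.28% of all genes lower. Within the KO-labelled libraries 15 genes were called lower, where 8.58% of all genes were, and 41 changes were negative with a median of -0.66 (0.02 over all genes). Here 28 of the 44 had every conditioned library below every unconditioned one (15.4% of all genes). Leaving out unconditioned KO library 2 or conditioned KO library 1 left 2 calls (1.46% and 0.799% of all genes), and leaving out unconditioned KO library 1 or conditioned KO library 2 left 5 (1.39% and 2.25%).

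Same-numbered KO-labelled libraries tended to deviate together (correlations of 0.21 to 0.35, against -0.34 to 0.24 for unlike numbers). The counts above come from a fit without a block. With the number as a block within each genotype 24 of the 44 genes were called lower (8.73% of all genes). With 1 block across genotypes the count was 23 (6.95% of all genes). The 9 genes that this block within genotype added are Dut, Gins2, Mcm10, Mcm3, Mcm5, Mcm6, Orc1, Rrm2 and Uhrf1. In both genotypes 24 of the 44 genes had all conditioned libraries below all unconditioned ones. Another 10 did so in WT alone (Cdc7, Dut, Fen1, Gins1, Mcm2, Mcm4, Mcm7, Prim1, Slbp and Tyms), 4 in the KO-labelled libraries alone (Gins2, Pola2, Rfc3 and Rrm2), and 6 in neither (Cdt1, Chaf1b, E2f1, E2f2, Orc6 and Rfc4). The share of all genes that did so in both genotypes was not computed. Taken singly, it was 20.6% in WT and 15.4% in the KO-labelled libraries. The medium effects of the genotypes did not differ by test for any of the 44 genes, as given further on.

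**Figure D2:**
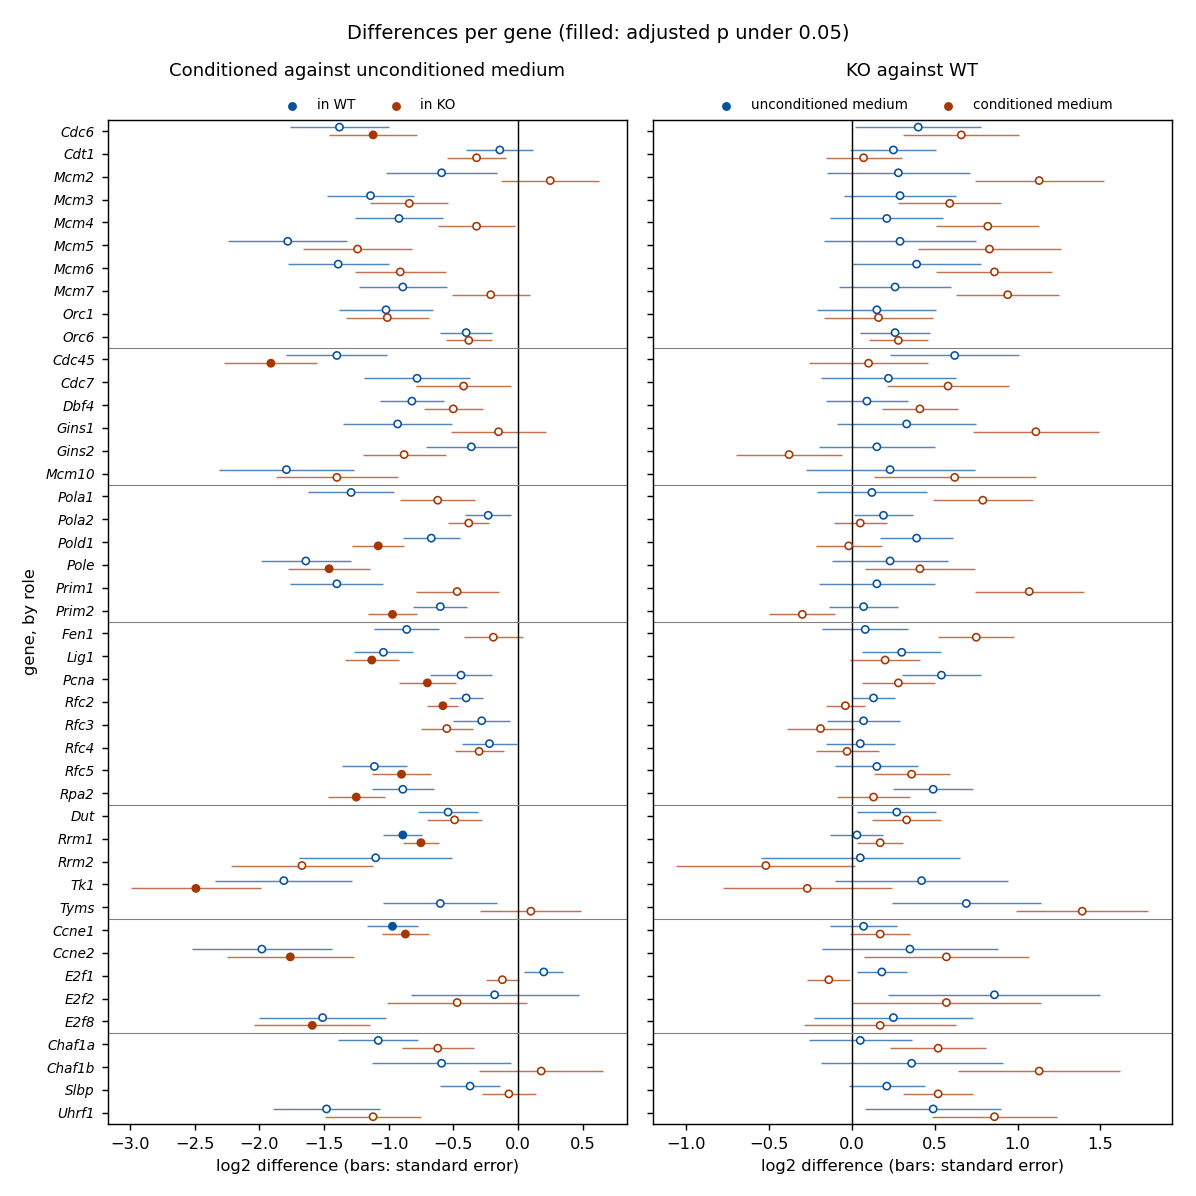
Log2 differences per gene with their standard errors: at the left conditioned against unconditioned medium in WT (blue) and KO-labelled libraries (brown), at the right KO-labelled against WT in unconditioned (blue) and conditioned medium (brown); filled points have an adjusted p under 0.05. At the left 43 WT points and 41 KO points lie below 0 and 2 and 15 of them are filled, and at the right no point is filled.

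Of the 5 nucleotide supply genes, 4 fell on average: Rrm1, Rrm2, Tk1 and Dut. Rrm1, the large subunit of ribonucleotide reductase, was at 129 and 168 CPM in the unconditioned WT libraries and 66.9, 88.2 and 85.1 CPM in the conditioned ones. In KO-labelled libraries it was at 141, 152 and 163 CPM in unconditioned and 81.9, 93.7 and 94.6 CPM in conditioned medium. All 6 conditioned libraries thus lay below all 5 unconditioned ones, and by edgeR's quasi-likelihood test the WT change on the log2 scale was -0.89 (SE 0.15, adjusted p = 0.0289). In the KO-labelled libraries that change was -0.75 (SE 0.14, edgeR adjusted p = 0.0108). Tk1, the thymidine kinase of cycling cells, had the largest fall of the 44. It went from 7.16 and 10.3 CPM to 0.901, 2.36 and 4.24 CPM in WT, and from 7.16, 12.1 and 15.8 CPM to 2.80, 1.64 and 1.78 CPM in KO-labelled libraries. Again no conditioned library reached an unconditioned one; the mean log2 change was -2.15 (SE 0.36, edgeR adjusted p = 0.00362).

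Rrm2, the small reductase subunit whose abundance follows S phase, behaved less evenly between libraries. Its WT libraries were at 91.4 and 150 CPM unconditioned and 44.2, 28.8 and 95.9 CPM conditioned, and the groups overlapped. Its KO-labelled libraries were at 149, 115 and 113 CPM unconditioned and 74.1, 25.3 and 18.7 CPM conditioned, with no overlap. The mean log2 change was -1.39 (SE 0.40, edgeR adjusted p = 0.0363). Dut, which removes dUTP so that uracil is not built into DNA, fell by less, by 0.51 on the log2 scale (SE 0.16, edgeR adjusted p = 0.044). Tyms, the thymidylate synthase, was not called, with a mean log2 change of -0.25 (SE 0.29), and is taken up below with the split of the conditioned KO-labelled libraries.

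Among the G1/S regulators, the cyclins E and E2f8 fell and the activator E2f1 did not change by test. Ccne1, a partner of Cdk2 at S phase entry, was at 23.6 and 28.9 CPM unconditioned and 11, 12.2 and 16.9 CPM conditioned in WT. With the KO label it was at 22.6, 29.6 and 30.1 CPM against 15.1, 15.2 and 14.7 CPM. No conditioned library overlapped the unconditioned ones in either genotype. By edgeR's quasi-likelihood test the WT change on the log2 scale was -0.97 (SE 0.20, adjusted p = 0.0458), next to a KO-labelled one of -0.87 (SE 0.18, edgeR adjusted p = 0.0147). Ccne2, the other cyclin E, was at 8.87 and 18.7 CPM against 1.99, 2.43 and 6.02 CPM in WT and at 11.7, 18.4 and 22.5 CPM against 2.74, 6.09 and 6.69 CPM in KO-labelled libraries. All 6 conditioned values were again below all 5 unconditioned ones, and the mean log2 change of Ccne2 was -1.87 (SE 0.36, edgeR adjusted p = 0.00701).

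E2f8, a repressor of the E2F family that is itself made in S phase, was at 6.05 and 10.1 CPM against 1.16, 2.23 and 5.10 CPM in WT, and at 7.23, 9.38 and 12.2 CPM against 2.99, 3.35 and 3.23 CPM in KO-labelled libraries. The groups did not overlap, and its mean log2 change was -1.55 (SE 0.33, edgeR adjusted p = 0.0108). E2f1, an activating E2F, was at 30.0 and 34.1 CPM unconditioned and 32.9, 35.3 and 42.0 CPM conditioned in WT, and at 35.9, 35 and 38.1 CPM and 38.1, 30.1 and 32.2 CPM in KO-labelled libraries. These ranges overlap in both genotypes. Its log2 change was 0.20 (SE 0.15) in WT and -0.12 (SE 0.13) in KO-labelled libraries, and the latter turned to 0.07 when libraries were scaled by their totals alone. E2f2, another activator, had only 4 to 28 fragments per library, and a change in it was not detectable at this depth.

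Origin licensing genes split into 5 that fell on average (Cdc6, Mcm3, Mcm5, Mcm6 and Orc1) and 5 that were not called (Cdt1, Mcm2, Mcm4, Mcm7 and Orc6). Mcm5, a helicase ring subunit, was at 26.5 and 44.3 CPM unconditioned and 5.08, 8.24 and 17.6 CPM conditioned in WT. In KO-labelled libraries it was at 35.8, 42.7 and 51.6 CPM against 11.5, 20.4 and 23.0 CPM. The groups did not overlap in either genotype and the mean log2 change was -1.51 (SE 0.31, edgeR adjusted p = 0.0092). Mcm6, its neighbour in function, was at 47.7 and 64.4 CPM against 13.9, 20.3 and 30.0 CPM in WT and at 53.5, 75.2 and 91.1 CPM against 21.8, 46.9 and 48.1 CPM in KO-labelled libraries. There too no value overlapped, although conditioned KO libraries 1 and 2 were more than 2-fold above library 0, and the mean log2 change was -1.15 (SE 0.26, edgeR adjusted p = 0.0142).

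Mcm3 was at 30.7 and 50.3 CPM against 12, 16.2 and 26.9 CPM in WT and at 44, 50.1 and 54.4 CPM against 19.8, 32.6 and 30.2 CPM in KO-labelled libraries, without overlap; its mean log2 change was -0.99 (SE 0.23, edgeR adjusted p = 0.0142). Cdc6, the loader of the ring, was at 4.86 and 8.46 CPM against 1.93, 2.03 and 3.71 CPM in WT and at 6.96, 9.38 and 9.97 CPM against 2.68, 4.26 and 5.12 CPM in KO-labelled libraries. Its groups did not overlap, and the mean log2 change was -1.25 (SE 0.26, edgeR adjusted p = 0.00889). Mcm4, the licensing gene with the highest mean CPM, was at 47.6 and 69.3 CPM against 25.3, 29.6 and 37.6 CPM in WT. With the KO label it was at 53.5, 70.7 and 79.0 CPM against 29.8, 67.6 and 65.7 CPM, so that only conditioned library 0 lay below the unconditioned range; the mean log2 change of -0.62 (SE 0.23, edgeR adjusted p = 0.0788) was not called.

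Of the 6 origin firing genes, Cdc45, Mcm10 and Dbf4 fell on average, and Cdc7, Gins1 and Gins2 were not called. The Gins2 entry reaches beyond the gene, as given further on. Cdc45, the helicase cofactor, was at 10.8 and 12.7 CPM unconditioned and 2.25, 4.25 and 6.88 CPM conditioned in WT. In KO-labelled libraries it was at 12.3, 18.3 and 23.4 CPM against 5.35, 4.32 and 4.69 CPM. No values overlapped, and the mean log2 change was -1.65 (SE 0.27, edgeR adjusted p = 0.00301). Mcm10, which helps to switch on the loaded helicase, was at 7.95 and 11.9 CPM against 1.09, 1.96 and 5.56 CPM in WT and at 9.40, 10.4 and 15.2 CPM against 3.73, 4.56 and 4.91 CPM in KO-labelled libraries. The groups stayed apart, with a mean log2 change of -1.59 (SE 0.35, edgeR adjusted p = 0.0127). Dbf4, the activating subunit of Cdc7 kinase, was at 36.7 and 51.2 CPM against 18.8, 24.4 and 31.5 CPM in WT and at 43.1, 49.9 and 47.4 CPM against 24.4, 35.1 and 40.0 CPM in KO-labelled libraries. Its fall was smaller, with a mean log2 change of -0.66 (SE 0.17, edgeR adjusted p = 0.0232).

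Of the 6 polymerase and primase genes, 5 fell on average (Pola1, Pold1, Pole, Prim1 and Prim2), and Pola2, a regulatory subunit of polymerase alpha, was not called at a mean log2 change of -0.31 (SE 0.12). Pole, the catalytic subunit of the leading-strand polymerase epsilon, was at 16.8 and 28.8 CPM unconditioned and 3.80, 7.83 and 10.4 CPM conditioned in WT. With the KO label it was at 24.1, 25 and 31.1 CPM against 8.96, 9.68 and 10.6 CPM. The 6 conditioned values were all below the 5 unconditioned ones, and the mean log2 change was -1.55 (SE 0.24, edgeR adjusted p = 0.00257). Pold1, the catalytic subunit of polymerase delta, was at 21.6 and 24.2 CPM against 13.0, 15.1 and 14.9 CPM in WT and at 21.0, 31.4 and 37.3 CPM against 12.6, 15.5 and 14.4 CPM in KO-labelled libraries. No overlap was seen, and the mean log2 change was -0.88 (SE 0.15, edgeR adjusted p = 0.00341).

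Pola1, the catalytic subunit of polymerase alpha, was at 20.6 and 31.3 CPM against 8.43, 10.6 and 12.8 CPM in WT and at 23.9, 29.1 and 31.8 CPM against 10.5, 21.6 and 23.2 CPM in KO-labelled libraries. Conditioned KO libraries 1 and 2 came close to the lowest unconditioned value, and the mean log2 change was -0.95 (SE 0.22, edgeR adjusted p = 0.0153). The primase subunits differed in which conditioned KO-labelled library was lowest. Prim2, the large subunit, was at 18.9, 22.1 and 22.1 CPM unconditioned and 13.7, 9.25 and 9.22 CPM conditioned. Prim1, the catalytic subunit, was at 9.13, 13.5 and 16 CPM unconditioned and 6.04, 9.43 and 12.3 CPM conditioned. Their mean log2 changes were -0.79 (SE 0.14, adjusted p = 0.00526) for Prim2 and -0.94 (SE 0.24, adjusted p = 0.0226) for Prim1 by edgeR's quasi-likelihood test.

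Of the 8 genes of the clamp, its loader and the lagging strand, 5 fell on average (Lig1, Pcna, Rfc2, Rfc5 and Rpa2), while Fen1, Rfc3 and Rfc4 were not called. Rpa2, a subunit of the single-strand binding protein, was at 13.7 and 19.9 CPM unconditioned and 8.49, 8.57 and 10.2 CPM conditioned in WT. In KO-labelled libraries it was at 17, 26.4 and 27.5 CPM against 9.21, 9.49 and 11.1 CPM. The groups did not overlap and the mean log2 change was -1.07 (SE 0.16, edgeR adjusted p = 0.00214). Lig1, the ligase that seals Okazaki fragments, was at 21.2 and 31.2 CPM against 9.65, 12.4 and 16.3 CPM in WT and at 27.6, 31.7 and 37.4 CPM against 14.2, 14.9 and 14.9 CPM in KO-labelled libraries. Its conditioned KO-labelled libraries were nearly equal, and the mean log2 change was -1.08 (SE 0.16, edgeR adjusted p = 0.00196).

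Clamp loader subunits among the 44 are Rfc2, Rfc3, Rfc4 and Rfc5. Rfc5 was at 9.92 and 11.8 CPM against 4.05, 4.79 and 6.22 CPM in WT and at 9.46, 11.8 and 14.8 CPM against 5.41, 6.45 and 7.49 CPM in KO-labelled libraries, with a mean log2 change of -1.0 (SE 0.17, edgeR adjusted p = 0.00363). Rfc2 was at 32.9 and 33.6 CPM against 22.3, 23.6 and 29.7 CPM in WT and at 35.2, 36.1 and 38.0 CPM against 25, 24.7 and 23.6 CPM in KO-labelled libraries, with a mean log2 change of -0.49 (SE 0.09, edgeR adjusted p = 0.00505). Both kept conditioned and unconditioned values apart. Rfc4 was at 68.2 and 98.7 CPM against 68.9, 63.5 and 81.9 CPM in WT and at 73.9, 93.9 and 91.3 CPM against 85.6, 67.5 and 57.1 CPM in KO-labelled libraries. Its groups overlapped, the mean log2 change of -0.26 (SE 0.14, edgeR adjusted p = 0.207) was not called, and its WT value turned from -0.22 to 0.07 without unconditioned WT library 2. The Rfc4 entry reaches beyond the gene, as given further on, so these values may not be those of Rfc4 alone. Rfc3 was at 8.34 and 12.2 CPM against 7.92, 8.3 and 9.07 CPM in WT and at 8.99, 11.8 and 11.5 CPM against 8.65, 6.51 and 6.95 CPM in KO-labelled libraries, and was not called (edgeR adjusted p of the mean effect 0.0708). The large subunit Rfc1, from the list of other replication factors and picked after its values were seen, fell by 0.35 on the log2 scale (edgeR adjusted p = 0.0154). Whether the changes of these subunits differ from each other was not tested.

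Of the 4 chromatin assembly genes, Uhrf1 and Chaf1a fell on average, and Chaf1b and Slbp were not called. Uhrf1, which recruits the maintenance DNA methyltransferase to new DNA, was at 14.7 and 27.5 CPM unconditioned and 4.96, 6.68 and 11.1 CPM conditioned in WT. With the KO label it was at 20.3, 31.2 and 37.5 CPM against 9.02, 15.8 and 16.2 CPM. The groups did not overlap, with a mean log2 change of -1.30 (SE 0.28, edgeR adjusted p = 0.0105). Slbp, which binds the stem-loop of histone mRNAs, was at 25.9 and 30.4 CPM against 23.2, 18.2 and 23.9 CPM in WT and at 29.9, 32.1 and 36.1 CPM against 21.1, 34.6 and 37.8 CPM in KO-labelled libraries. Those KO-labelled values overlap, and the log2 change in them was -0.07 (SE 0.21), or 0.14 with libraries scaled by their totals alone. Chaf1a, the large subunit of the histone chaperone CAF-1, had a mean log2 change of -0.85 (SE 0.21, edgeR adjusted p = 0.0202), and Chaf1b, the subunit next to it, one of -0.21 (SE 0.36).

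Levels between genes can be compared on the per-length scale of the deposited FPKM. Averaged over the 11 libraries, Rrm2 (35.8 FPKM), Rrm1 (26.0 FPKM) and Rfc2 (19.0 FPKM) were the highest of the 44, and E2f2 (0.187 FPKM) and Orc1 (0.981 FPKM) the lowest. The order was not the same in every group: in conditioned KO-labelled libraries the mean was 21 FPKM for Tyms, 20.5 FPKM for Rrm1, 17.8 FPKM for Mcm2, 17.2 FPKM for Rrm2 and 15.7 FPKM for Rfc2. Orc1 has a second entry in the table with 4 to 21 fragments per library, which was not used. The libraries do not mark the strand, and 12 of the 44 genes overlap an exon of a protein-coding gene on the opposite strand in GENCODE M21, whose reads cannot be told apart there: Ccne2 (Ints8), Cdc45 (Ufd1), Chaf1a (Ubxn6), Fen1 (Tmem258), Gins2 (Gse1), Lig1 (Zswim9), Mcm7 (Cops6 and Ap4m1), Orc6 (Vps35), Rfc2 (Lat2), Rfc4 (Eif4a2), Rfc5 (Wsb2) and Tk1 (Afmid). Pcna and Tyms have named pseudogenes that could share reads with them. Entries lay close to the GENCODE position for 32 of the 44 genes. Among the others, the Gins2 entry starts at chr8:120230004, where the GENCODE gene starts at 120578633. The Ccne2 entry ends at chr4:11254259 against 11204779, and that of Tk1 at chr11:117839908 against 117826092. The Rfc4 entry starts at chr16:23107468 against 23113943, and that of Lig1 at chr7:13258967 against 13277283. Fragments of such wider entries may not all come from the named gene. For Gins2 the WT means went from 14.1 to 7.14 FPKM, but from 23.2 to 18.1 CPM. Averaged over the 11 libraries, Rfc4 was at 77.3 CPM and 9.46 FPKM, and Rfc2 at 29.5 CPM and 19.0 FPKM.

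The comparison of KO-labelled with WT libraries asks whether the receptor gene's label goes with another level of these RNAs. In unconditioned medium 0 of the 44 genes were called by edgeR's quasi-likelihood test, where 0.00735% of all genes were, and 0 had an unadjusted p under 0.05 (2.16% of all genes); DESeq2 and limma voom also called 0. All 44 log2 differences were positive, with a median of 0.24 (0.01 over all genes) and a range of 0.03 to 0.86, yet only 3 genes had every KO-labelled library above both WT ones (9.12% of all genes). Unconditioned WT library 0 was the lowest of the 5 unconditioned libraries for 40 of the 44 genes, and KO-labelled library 2 the highest for 33. Pcna, the sliding clamp, had the smallest p: its WT libraries were at 15.8 and 20.6 CPM and its KO-labelled libraries at 20.6, 28.3 and 30.4 CPM, a log2 difference of 0.54 (SE 0.24, edgeR adjusted p = 0.998).

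In conditioned medium the KO-labelled libraries were higher for 35 of the 44 genes, with a median log2 difference of 0.39 (-0.01 over all genes) and a range of -0.52 to 1.39. The edgeR test called 0 of the 44, and 0% of all genes; 12 of the 44 had an unadjusted p under 0.05 (13.9% of all genes), and DESeq2 and limma voom called 0 of the 44. The smallest adjusted p was 0.357. The smallest unadjusted p-values were those of Tyms, with a log2 difference of 1.39 (SE 0.40), Prim1 at 1.07 (SE 0.33) and Fen1, the flap nuclease of Okazaki fragments, at 0.75 (SE 0.23). Mcm2 and Chaf1b at 1.13 and Gins1 at 1.11 differed by more than Prim1. The 4 genes with every KO-labelled conditioned library above every WT one compare with 4.65% of all genes. For the difference between the genotypes' medium effects (the interaction), edgeR called 0 of the 44 and 0% of all genes, with 0 at an unadjusted p under 0.05 (3.03% of all genes), and DESeq2 and limma voom called 0 of the 44. Its values ran from -0.69 for Tk1 to 0.92 for Prim1, with a median of 0.16 (-0.02 over all genes). These counts depend on conditioned KO library 0, as follows.

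**Figure D3:**
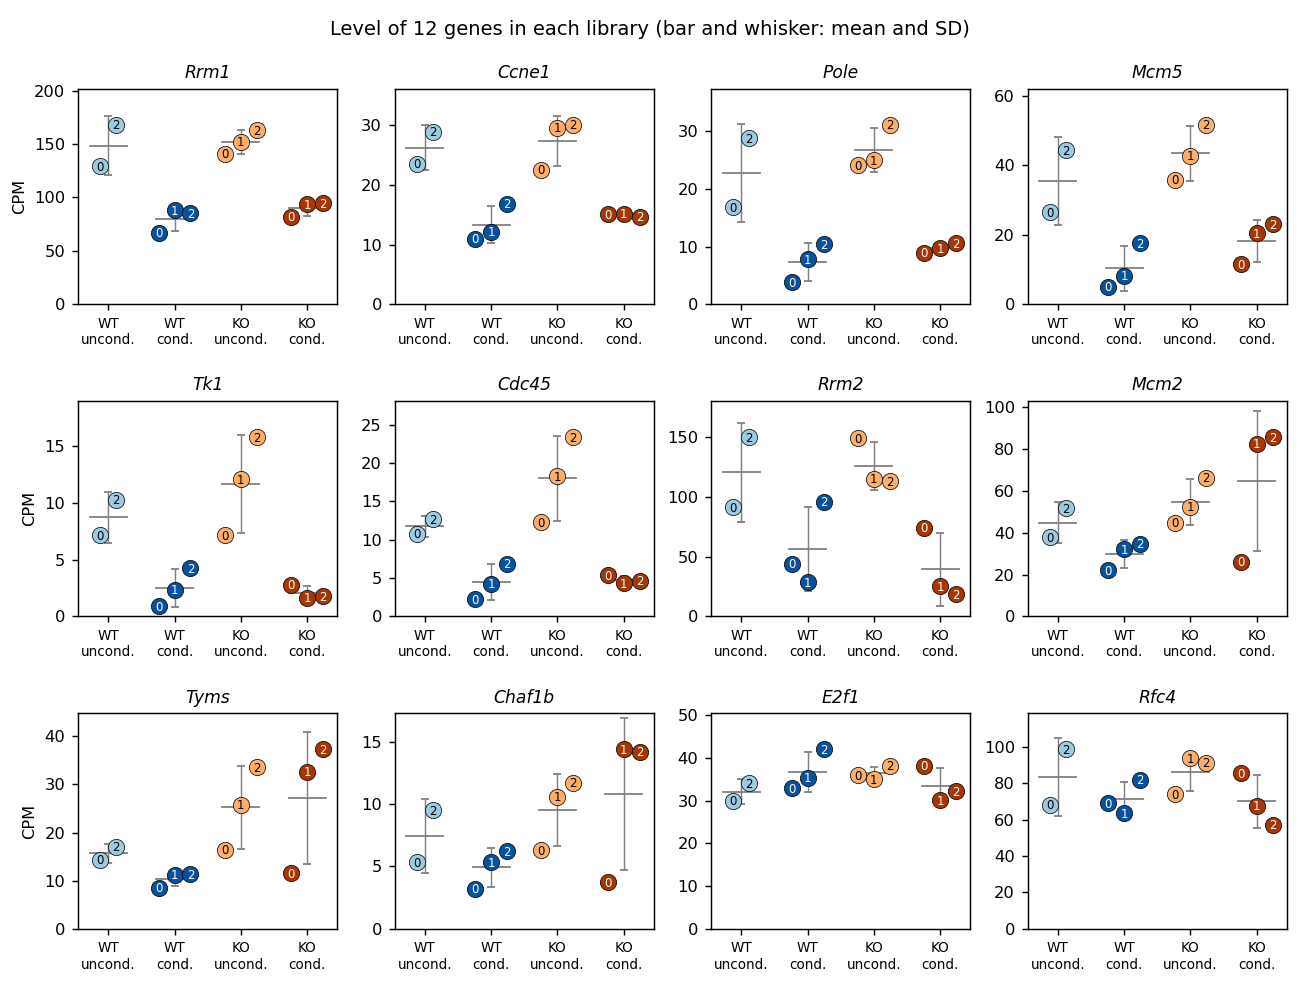
CPM of 12 genes in each of the 11 libraries; numbers in the points are library numbers, bars and whiskers the mean and SD of a group, with 2 libraries in the unconditioned WT group and 3 in the others. For Rrm1, Ccne1, Pole, Mcm5, Tk1 and Cdc45 every conditioned library lies below the unconditioned ones of its genotype, for Mcm2, Tyms and Chaf1b conditioned KO libraries 1 and 2 lie high, and for E2f1 and Rfc4 the groups overlap. The Rfc4 and Tk1 entries reach beyond their genes.

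The 3 conditioned KO-labelled libraries split. On the first principal component of all genes (44.8% of the variance) libraries 1 and 2 lay at 70.1 and 85.2, and library 0 at -5.67, among the conditioned WT libraries at -11.4 to 29.5. Set against the range of the unconditioned KO-labelled libraries, library 0 was below it for 42 of the 44 genes (29.2% of all genes), library 1 for 32 (35.3%) and library 2 for 30 (37.7%). In library 0 the other 2 genes lay within the range, whereas libraries 1 and 2 held 10 genes each within it, and 2 and 4 above it, where 37.3% and 38.8% of all genes were above. Library 0 lay within the range of the conditioned WT libraries for 36 of the 44 genes (65.2% of all genes). Libraries 1 and 2 were both above all conditioned WT libraries for 25 genes (31.6% of all genes) and both below them for 5 (31.5% of all genes), namely E2f1, Gins2, Prim2, Rfc3 and Rrm2.

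Mcm2, Chaf1b and Tyms show the split most plainly; they were picked after their values were seen. Mcm2, a helicase ring subunit, was at 44.7, 52.4 and 66.2 CPM in unconditioned and at 26.1, 82.3 and 85.5 CPM in conditioned KO-labelled libraries, against 37.8 and 51.6 CPM and 22.1, 32.0 and 34.7 CPM in WT. Library 0 was thus below, and libraries 1 and 2 above, every unconditioned value. Chaf1b followed the same order, at 6.29, 10.6 and 11.7 CPM unconditioned and 3.73, 14.4 and 14.2 CPM conditioned. Tyms was at 16.4, 25.8 and 33.6 CPM unconditioned and 11.5, 32.6 and 37.3 CPM conditioned, with its conditioned WT libraries at 8.56, 11.2 and 11.3 CPM. Rrm2 went the other way, with library 0 the highest of the 3, as given above.

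Without conditioned KO library 0, KO-labelled libraries were called higher than WT in conditioned medium for 12 of the 44 genes and lower for 1, where 17.3% and 15.9% of all genes were. The 12 are Chaf1b, Dut, Fen1, Gins1, Mcm2, Mcm4, Mcm6, Mcm7, Pola1, Prim1, Slbp and Tyms, and the 1 is Prim2. Mcm2 then differed by 1.52 (edgeR adjusted p = 0.00207) and Tyms by 1.77 (edgeR adjusted p = 0.00216) on the log2 scale. Within the KO-labelled libraries the medium then raised Mcm2 by 0.63 (SE 0.22, edgeR adjusted p = 0.0435), where 22.9% of all genes were called higher, and lowered 16 of the 44 genes (21.9% of all genes). The interaction was called for Mcm2 alone, at 1.23 (edgeR adjusted p = 0.0409), where 5.22% of all genes were called higher. With library 0 as the only conditioned KO-labelled library, the spread comes from the other groups alone and that library is assumed to vary like them. By edgeR none of the 44 was then called in the medium comparison within KO, where 0% of all genes were called lower, and 33 of the 44 had an unadjusted p under 0.05 (15.2% of all genes). The interaction median was -0.17.

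The split was also described by role group, with no test between groups. The level of a group in a library was taken as the mean, over its genes, of log2 CPM minus the gene's mean over the 11 libraries. In conditioned KO libraries 0, 1 and 2, licensing genes were at -0.68, 0.16 and 0.28, and chromatin assembly genes at -0.68, 0.36 and 0.41. Firing genes were at -0.49, -0.14 and -0.08, polymerase genes at -0.47, -0.19 and -0.11, and G1/S control genes at -0.59, -0.17 and -0.09. Clamp and lagging-strand genes were at -0.32, -0.21 and -0.16. The mean of the nucleotide supply genes, at -0.40, -0.40 and -0.41, joins genes that went opposite ways, with Tyms and Dut (19, 28.9 and 31.3 CPM) lowest and Rrm2 and Tk1 highest in library 0. The 29 genes of mitosis were in the opposite order, at -0.60, -1.14 and -1.03. For the Mcm2 to Mcm7 ring the values were -0.74, 0.35 and 0.39, against 0.35, 0.63 and 0.88 in unconditioned KO-labelled libraries. Among the conditioned WT libraries, library 2 was the highest of the 3 for 40 of the 44 genes and library 0 the lowest for 32.

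**Figure D4:**
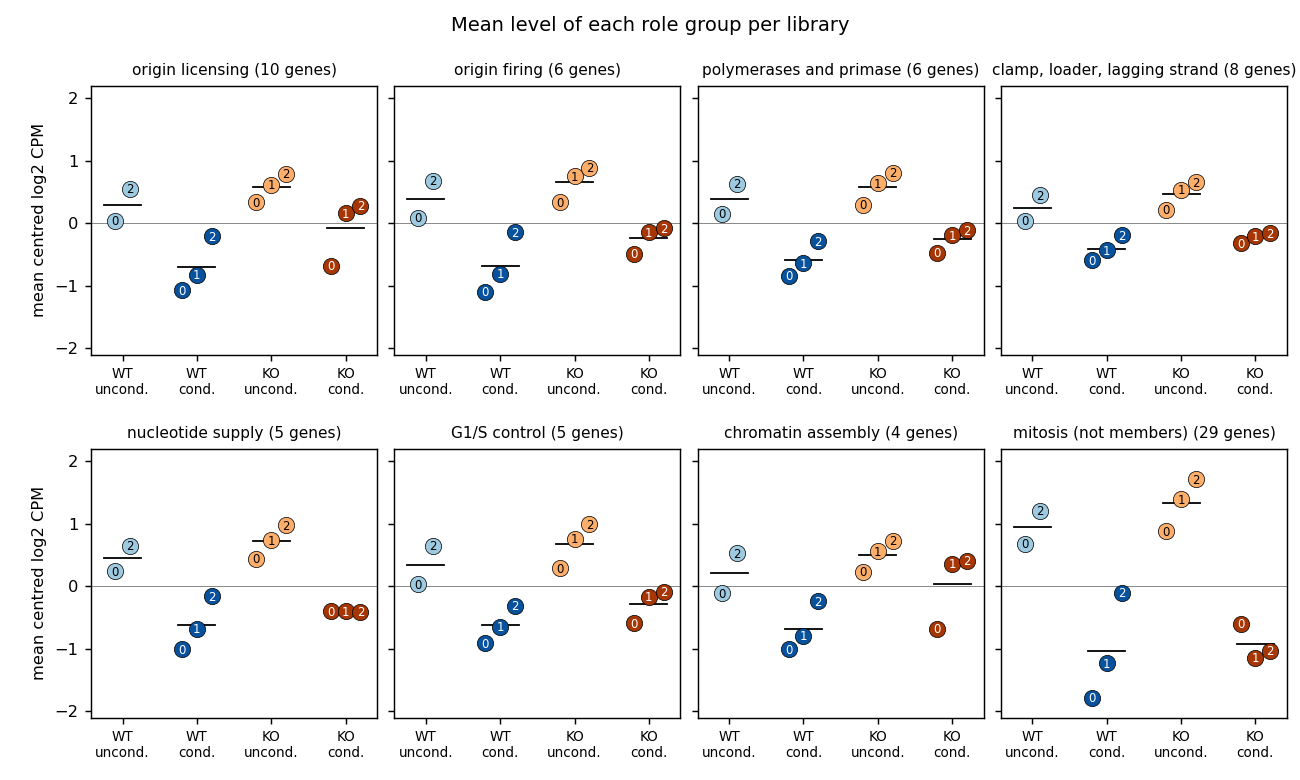
Mean over the genes of each role group of log2 CPM minus the gene's mean, in each library (numbered points; lines are group means), with 29 mitosis genes for comparison. In conditioned KO libraries 1 and 2 the licensing and chromatin assembly genes are above library 0 and the mitosis genes below it.

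The other genes of the pathway, from lists set beside the 44, moved as follows under conditioned medium, averaged over the genotypes and read against 10.1% of all genes lower and 10.4% higher. Of 39 other replication factors 16 fell and none rose (median -0.55), among them Topbp1 (-0.89), Ticrr (-1.79) and Timeless (-1.02), which act in origin firing and at the moving fork. The subunits Orc2 (0.18), Orc3 (-0.15), Orc4 (0.06) and Orc5 (-0.04), named for comparison after their values were seen, were not called, whereas Orc1 fell by 1.01 on the log2 scale (SE 0.24, edgeR adjusted p = 0.017). Of 17 genes of fork repair and the checkpoint 13 fell and none rose (median -1.27), among them Exo1 (-1.92) and Rad54l (-1.63). Of 17 other genes of the E2F, retinoblastoma and Cdk2 axis 8 fell and 1, Lin37, rose; Ccna2, the S phase cyclin A, was at -2.29, Tfdp2 at -0.53 and Tfdp1 at -0.44.

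Of 21 other nucleotide enzymes 5 fell and 1, Nme1, rose (median -0.16); Ctps was at -0.96, Dck at -0.76 and Samhd1 at -0.74. Of 12 CDK inhibitors and D-type cyclins with their kinases, 2 fell, Cdkn2d (-0.95) and Cdkn2c (-0.59), and 1 rose, Cdk4 (0.36), the kinase that starts retinoblastoma protein phosphorylation. Genes of mitosis fell throughout, 29 of 29, with a median of -2.08 and with Spc24 (-2.46), Prc1 (-2.07) and Bub1b (-2.0) at the smallest adjusted p. The median of the 44 replication and G1/S genes was -0.80. Within WT 4 of the 29 mitosis genes were called and within the KO-labelled libraries 29 of 29. All values are mean log2 changes by edgeR, and each gene named without a remark was called.

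The authors' deposited table of start-site tests holds calls per group of transcripts that share a start site. It tested 43 of the 44 genes and marked 22 as significantly lower in conditioned medium in WT, where 4.45% of all its tests were lower, and 23 in the KO-labelled libraries, where 9.07% were. The deposited libraries hold the duplicated unconditioned WT library under both numbers 0 and 1. Calls against this group thus treat 1 sample as separate replicates, and its spread may be understated. For KO-labelled against WT the authors' tests marked 1 gene, Pcna, as higher in unconditioned medium (2.21% of these tests were significant in either direction). In conditioned medium they marked 10 genes as higher, Chaf1b, Fen1, Gins1, Mcm2, Mcm4, Mcm5, Mcm6, Mcm7, Pola1 and Prim1, and 0 as lower. There 7.2% of all these tests were significant in either direction, and 2.87% were significantly lower. The counts are of genes and the shares of start-site tests.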

How the data were processed

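The tools named in the submitters' processing notes are Cuffdiff 2.1.1, Cufflinks 2.1.1, TopHat2 2.0.9 and CASAVA 1.8.2, and the build is GRCm38 (mm10). The authors deposited, per the file headers, raw fragments per gene and library, which are expected counts (94.3% whole), and FPKM, fragments scaled by length and depth. Their deposited start-site tests hold log2 fold changes, p-values and q-values, and other columns per the file headers served for identifiers. Gene rows with no symbol (1714 of 25511; 2.69% to 3.10% of fragments) stayed out of library sizes and tests. Rounded fragments of 11 libraries (7 residual degrees of freedom, where 12 libraries and 8 had been planned) were fitted with edgeR 4.0.16 in R 4.3.3: TMM, filterByExpr, robust quasi-likelihood, 13603 genes, 4 groups, 6 comparisons. The biological coefficient of variation was 0.238. The script was tested on simulated data with known changes in the conditioned WT group alone and a smaller coefficient of variation than here. The members and lists were chosen with earlier results of these data known. Members with values per library were those called or, in a role group, highest or most changed, up to 25; others were picked after their values were seen. Motifs and neighbours came from RefSeq windows and GENCODE M21. Table library numbers (0 to 2) are not tied to title numbers (1 to 3). Same-numbered KO libraries had deviation correlations of 0.35, 0.21 and 0.30, against -0.34 to 0.24 for unlike numbers. The KO numbers were taken as pairs only in the fits with a block, and the main fit had no block. WT has 2 pairs, too few to decide: 0.41 for number 2, and -0.13 or 0.45 for the duplicated library read as number 0 or 1. The unconditioned sample titled as WT and labelled F2rl1 -/- was kept in the unconditioned WT group. Alternatives used DESeq2 1.42.0, limma 3.58.1, other scalings, filters, pseudocounts and left-out libraries. A gene of the fork repair list that the naming rule picks is not reported here.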

Additional observations from a re-analysis of the deposited data

How the results depend on the processing

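The count of the 44 genes called lower in conditioned medium, averaged over genotypes, was 27 and lay between 24 and 37 under other tools, scalings, filters, blocks and sets of libraries, and between 12 and 31 with 1 library left out. In WT the count of 2 was 21 with DESeq2, 11 with 12 columns as separate libraries, 16 with a replicate block and 6 with a block within genotype, 1 with library totals only and with limma on log2 FPKM plus 1 or 0.1, 0 with only the groups compared, 22 without both KO libraries numbered 0, 4 without conditioned KO libraries 1 and 2, and 0 to 16 with 1 library left out. In KO-labelled libraries the count of 15 was 24 with DESeq2 (13.2% of all genes lower), 23 with a replicate block (6.95%) and 24 with a block within genotype (8.73%). With 1 library left out it was 2 to 19, and 1 gene was then called higher. Without conditioned KO libraries 1 and 2 the median change was -1.13. The WT libraries form 2 pairs, too few to settle whether numbers pair them, and the duplicated library carries the numbers 0 and 1. Numbered 1, it gave 11 calls in WT and 25 in KO-labelled libraries with a replicate block, and 0 and 24 with a block within genotype. Without both KO libraries numbered 0, KO-labelled against WT called 3 genes higher in unconditioned medium (2.13% of all genes), and in conditioned medium 15 higher and 1 lower (21.4% and 21.1%); leaving out 1 library gave 0 to 12 higher and 0 to 1 lower. The interaction called 2 genes higher without both (9.52% of all genes) and 0 to 1 with 1 library left out. Without conditioned KO libraries 1 and 2 the medians of KO-labelled against WT in conditioned medium and of the interaction were 0.05 and -0.17. Over these settings the sign turned for 5 of the 44 genes in WT (Cdt1, E2f2, Gins2, Rfc3 and Rfc4), 8 in KO-labelled libraries (Chaf1b, E2f1, Fen1, Gins1, Mcm2, Mcm7, Slbp and Tyms) and 3 on average (Chaf1b, E2f1 and Mcm2), none of them called with all 11 libraries or in the setting that turned it. Among the genes named by rule these were E2f1 in KO-labelled libraries (0.07 with library totals only, 0.08 without conditioned KO libraries 1 and 2) and on average (-0.01, -0.02 and -0.01 with 1 library left out, -0.02 without both KO libraries numbered 0), Slbp in KO-labelled libraries (0.14 with library totals only, -0.22 to 0.15 with 1 library left out, with 0.01 between, 0.09 without both KO libraries numbered 0) and Rfc4 in WT (-0.47 to 0.07 with 1 library left out). The cause of these shifts was not tested. The block within genotype, the duplicated library numbered 1 and the set without conditioned KO libraries 1 and 2 were added after seeing the data. Fragments per gene limit what can be seen for E2f2, Orc1, Cdc6 and E2f8, and intervals cover the spread between these libraries only.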
